A study of Mus musculus with 58 samples.

Results

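Kidney RNA of mice given 1 oral dose of trichloroethylene (TCE) at 2 mmol/kg was compared with kidney RNA of mice given vehicle. The comparison takes 6 of the 58 libraries of the series, all from the kidney: the 3 libraries labelled TCE at 2 mmol/kg (240 mg/kg) and the 3 labelled as the vehicle group of TCE. TCE is a chlorinated solvent, and the wider study set it beside tetrachloroethylene (PCE), a related solvent, over equal molar doses in liver and kidney. The animals were male B6C3F1/J mice bought at 5 to 6 weeks of age and dosed after a week of acclimatization, by stomach tube, in the morning. Another label names the strain as C57BL/6, so the labels do not settle the genotype. Both groups received the same carrier at 5 mL/kg, a saline with 5% of the surfactant Alkamuls EL-620. No transgene or other agent is named in the labels. How long after dosing the tissue was taken is not stated in the labels. They also do not say whether each library is a separate animal, so p-values measure the spread between these libraries, which may in part be technical. Library totals were 26969250, 26364764 and 23247565 gene counts at 2 mmol/kg and 23462407, 26179309 and 28443387 in vehicle.

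TCE is broken down along a pair of routes. Oxidation, in which the cytochrome P450 enzyme CYP2E1 takes a large part, yields acids such as trichloroacetate, which activate PPARa, a nuclear receptor that switches on genes of fatty acid oxidation in mouse liver and in the proximal tubule of the kidney. Conjugation to glutathione yields cysteine conjugates that the proximal tubule takes up and can turn into reactive products, which is the basis of the kidney toxicity of the solvent.

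At 2 mmol/kg no gene passed the test. None of 14216 genes (0%) reached a Benjamini-Hochberg adjusted p under 0.05 in edgeR's quasi-likelihood test against vehicle, and the smallest adjusted p was 0.369. DESeq2 also called 0. At an unadjusted p under 0.05 there were 606 genes (4.26%), of which 413 had higher (2.91%) and 193 lower values (1.36%) after TCE. The CPM (counts per TMM-normalized library size) of the 2 mmol/kg and vehicle libraries did not overlap for 952 genes (6.7%), with 545 higher (3.83%) and 407 lower (2.86%) after TCE. The median log2 fold change, TCE over vehicle, was 0.01. The median standard error (SE) was 0.167 on the log2 scale, and for 11301 genes (79.5%) the 95% interval of the fold change lay within a 2-fold change in either direction. Changes beyond that size lay outside the interval for those genes, and smaller ones were often not resolved.

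Library 2 of the 2 mmol/kg group stood apart from the other 5 libraries. It held 215 of 14216 tested genes at least 2-fold above each of the other 5 libraries, with 0.5 CPM added to each value. Libraries 1 and 3 at 2 mmol/kg held 5 and 2 such genes, and the vehicle libraries 0, 38 and 6. For 110 genes library 2 at 2 mmol/kg was at least 2-fold above all other 28 kidney libraries of the series. Aldh1a3, which makes retinoic acid, had 1.01, 72.1 and 0.843 CPM in libraries 1, 2 and 3 at 2 mmol/kg, against 0.658, 1.05 and 1.31 CPM in vehicle. Fcgbp, a mucus protein, had 0.337, 47 and 0.533 CPM at 2 mmol/kg, against 1.14, 0.645 and 1.13 CPM in vehicle. Psca, a surface protein of the urothelium, had 0.0749, 59.1 and 0.133 CPM at 2 mmol/kg, against 1.62, 0 and 1.53 CPM in vehicle. In each of these genes the height of the 2 mmol/kg group came from 1 library, and they were picked after their values were seen.

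Markers of the urothelium, which lines the renal pelvis and ureter, and of brown fat were high in the same library. The 5 uroplakins measured, which form the plaque of the urothelium, had 5.3 to 17.1 CPM there and at most 2.15 CPM in the other 5 libraries. Upk3a had 0.0375, 10.6 and 0.0888 CPM at 2 mmol/kg, against 1.14, 0.0403 and 0.835 CPM in vehicle. In library 2, 7 of the 8 genes of the ureter and urothelium list were more than 2-fold above the other 5 libraries. Such list counts, here and below, compare CPM with nothing added and include genes not tested, and the share over all genes was not taken. The summed level of the ureter and urothelium list was 3, 60.1 and 2.84 CPM at 2 mmol/kg, against 7.72, 1.21 and 5.48 CPM in vehicle, and 60.1 CPM was the highest of 29 kidney libraries. Brown fat markers had the same outline. Ucp1, the uncoupling protein that defines brown fat, had 1.16, 90.4 and 1.46 CPM at 2 mmol/kg, against 3.33, 3.1 and 5.08 CPM in vehicle, and the brown fat list summed to 134, 279 and 131 CPM at 2 mmol/kg, against 126, 124 and 132 CPM in vehicle. High Ucp1 was not particular to that library, since it reached 40.5 and 107 CPM in 2 of the 3 TCE 6 mmol/kg libraries.

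Markers of kidney regions also differed between libraries. Aqp2, the water channel of the collecting duct, had 165, 607 and 155 CPM at 2 mmol/kg, against 272, 159 and 259 CPM in vehicle. Slc14a2, the urea transporter of the inner medulla, had 0, 39.3 and 0.0888 CPM at 2 mmol/kg, against 7.41, 0 and 3.12 CPM in vehicle. Slc34a1, the phosphate transporter of the proximal tubule, had 12300, 7240 and 12400 CPM at 2 mmol/kg, against 9400, 11500 and 9550 CPM in vehicle. Of these genes, picked with their values in view, library 2 was high in Aqp2 and Slc14a2 and low in Slc34a1. Vehicle libraries 1 and 3 had more Aqp2 and Slc14a2 than vehicle library 2. Only 3 of the 12 collecting duct markers were more than 2-fold above the other 5 libraries in library 2. Others were not raised by it: the log2 fold changes with and without library 2 were -0.08 and 0.04 for Scnn1g, -0.04 and 0.07 for Hsd11b2, and -0.11 and 0.12 for Slc26a4. The 14 proximal tubule markers summed to 27100, 17900 and 27400 CPM at 2 mmol/kg, against 23300, 26600 and 23100 CPM in vehicle. The list as a whole was thus present in every library, though 1 of the 14 was at 0 in all 2 mmol/kg libraries and 1 in all vehicle libraries. In whole-tissue RNA, fewer cells of a type and less RNA per cell cannot be told apart.

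Adrenal tissue, which sits on the kidney, left no large trace in these 6 libraries. The adrenal cortex list summed to 94.6, 83.3 and 93.6 CPM at 2 mmol/kg, against 93.9, 90.7 and 77.2 CPM in vehicle, while the highest of 29 kidney libraries held 6050 CPM. Every kidney library held at least 72.8 CPM, so the sum cannot show a small trace. Of 13 adrenal cortex genes tested, 9 had higher and 4 lower values after TCE. For 2 of them (Cyp11a1 and Star) the TCE libraries lay above vehicle without overlap, as for 3.83% of all genes. Cyp11b1, the last enzyme of corticosterone synthesis, had 1.12, 0 and 0.178 CPM at 2 mmol/kg and 0, 0 and 0.0363 CPM in vehicle. In the vehicle group, library 2 held the highest liver and white fat markers. Alb, the albumin gene, had 16.9, 15.4 and 21.2 CPM at 2 mmol/kg, against 7.06, 83 and 21.6 CPM in vehicle, and 10 of the 14 liver markers and 6 of the 14 adipocyte markers were more than 2-fold above the other 5 libraries in that vehicle library. The whole liver list, which includes genes that kidney expresses, summed to 401, 524 and 687 CPM at 2 mmol/kg, against 584, 634 and 630 CPM in vehicle. Saa1, an acute phase gene that shares reads with its near-identical copy Saa2, had 0.15, 0 and 0.0888 CPM at 2 mmol/kg, against 0.219, 3.91 and 0.218 CPM in vehicle. The median log2 fold change of the 12 liver markers tested was -1.18 with all libraries and 0.14 without vehicle library 2. A transcript listed only as NR_046233 was high in vehicle library 3, with 2530, 1010 and 4420 CPM at 2 mmol/kg, against 2550, 1420 and 56700 CPM in vehicle. In that library the 10 highest genes held 19.12% of gene counts, the largest such share of the 29 kidney libraries. The part of this transcript in the other values of vehicle library 3 was not tested.

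**Figure D1:**
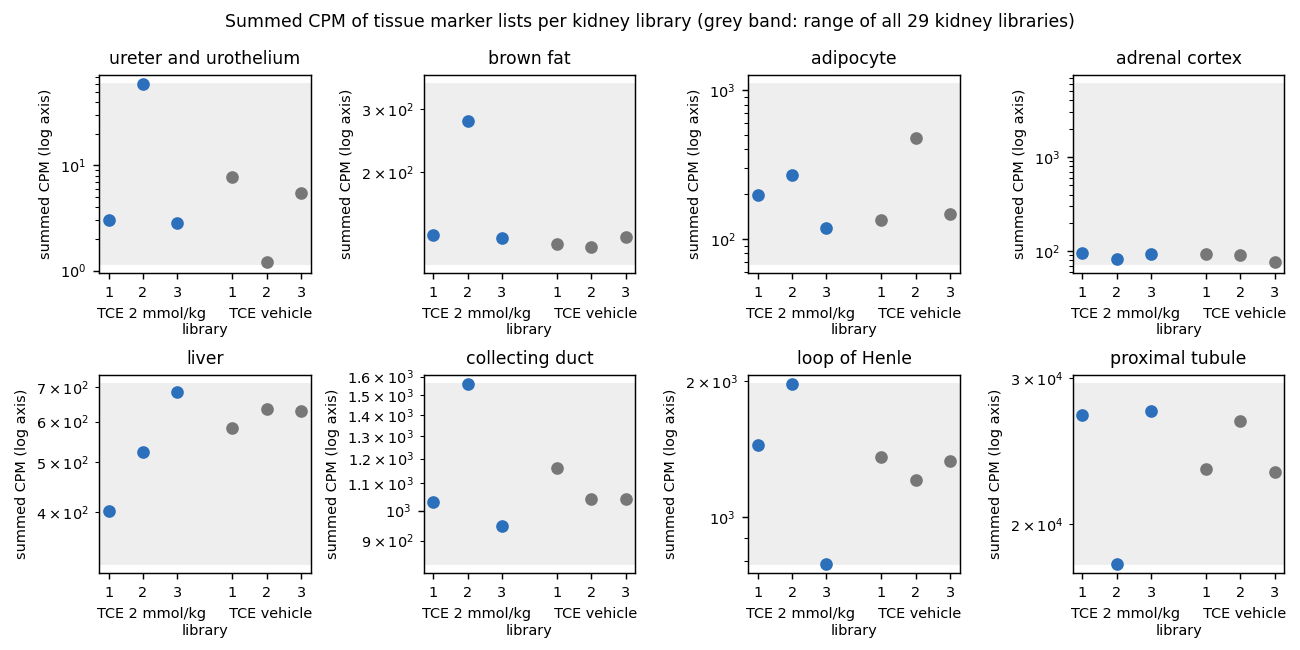
Summed CPM (log axis) of 8 marker lists in each library, with the 3 TCE 2 mmol/kg libraries on the left in blue, the 3 TCE vehicle libraries on the right in grey, and a grey band for the range of all 29 kidney libraries. Library 2 at 2 mmol/kg sits at the top of the band for the ureter and urothelium list (60.1 CPM) and at its foot for the proximal tubule list (17900 CPM), and vehicle library 2 is the highest of the 6 for adipocyte markers (475 CPM).

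PPARa targets, the group most tied to TCE in mouse tissues, had no passing gene. Of 52 tested genes of PPARa and fatty acid oxidation, 35 had higher values and 17 lower values after TCE, with a median log2 fold change of 0.09, against 0.01 over all genes. Among them 1 higher gene (Acaa2) and 2 lower genes (Fgf21 and Slc27a2) had an unadjusted p under 0.05, where 2.91% of all genes were higher and 1.36% lower at that level. Without library 2 the median was 0.02.

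Cyp4a14 (chr4:115486200-115496158, GRCm38.p6), a fatty acid hydroxylase and one of the most responsive PPARa targets in mice, had 20.9, 46.7 and 19.5 CPM at 2 mmol/kg, against 11.7, 17.1 and 9.37 CPM in vehicle. All 3 TCE libraries lay above all 3 vehicle libraries, by a small margin between 19.5 and 17.1 CPM. The log2 fold change was 1.20 ± 0.72 (SE, 95% interval -0.30 to 2.69, adjusted p of 1 in edgeR), and 0.67 ± 0.80 without library 2. Its neighbour Cyp4a10 had 337, 692 and 425 CPM at 2 mmol/kg, against 316, 310 and 338 CPM in vehicle, a log2 fold change of 0.59 ± 0.34, or 0.25 ± 0.36 without library 2. Here library 1 fell inside the vehicle range. Reads of Cyp4a10 and Cyp4a14, which are close relatives, may have been split or set aside in counting.

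Other targets were also highest in library 2. Pdk4, the kinase that shuts pyruvate dehydrogenase down in fasting, had 29.2, 84.8 and 31.4 CPM at 2 mmol/kg, against 45.2, 25.8 and 25.5 CPM in vehicle. Its log2 fold change was 0.60 ± 0.62 and became -0.08 ± 0.67 without library 2. Acot1, a cytosolic thioesterase that releases fatty acids from coenzyme A and shares sequence with Acot2, had 102, 150 and 113 CPM at 2 mmol/kg, against 104, 94 and 97.6 CPM in vehicle (log2 fold change 0.31 ± 0.24, or 0.13 ± 0.26 without library 2). Angptl4, a secreted inhibitor of lipoprotein lipase, had 62.2, 92.2 and 60.1 CPM at 2 mmol/kg, against 50.9, 60.8 and 43 CPM in vehicle (0.47 ± 0.32, or 0.25 ± 0.35 without library 2). Library 2 is also the library with the pelvic and brown fat RNA. The part of that RNA in the levels of these genes was not tested, and leaving the library out brought the log2 fold changes of Cyp4a14, Cyp4a10, Acot1 and Angptl4 down by more than 1.5 times.

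Enzymes of the same pathway varied in direction, and those named here were chosen with their values in view. Acaa2, the last enzyme of mitochondrial beta-oxidation, had 259, 234 and 291 CPM at 2 mmol/kg, against 173, 241 and 189 CPM in vehicle (log2 fold change 0.38 ± 0.13, edgeR adjusted p of 1). Acsl1, which activates long-chain fatty acids, had 6.71, 5.97 and 5.77 CPM at 2 mmol/kg, against 4.16, 4.63 and 4.43 CPM in vehicle (0.48 ± 0.28). Groups overlapped for Acaa2 and not for Acsl1. Ehhadh, the bifunctional enzyme of peroxisomal oxidation, averaged 1310 ± 248 CPM at 2 mmol/kg and 1250 ± 216 CPM in vehicle (SD, n = 3 each). Cpt1a, the gatekeeper of mitochondrial fatty acid import, had a log2 fold change of 0.10 ± 0.09, and Acadl, an acyl-CoA dehydrogenase, of 0.00 ± 0.10. The 95% intervals were -0.08 to 0.28 for Cpt1a and -0.19 to 0.20 for Acadl.

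**Figure D2:**
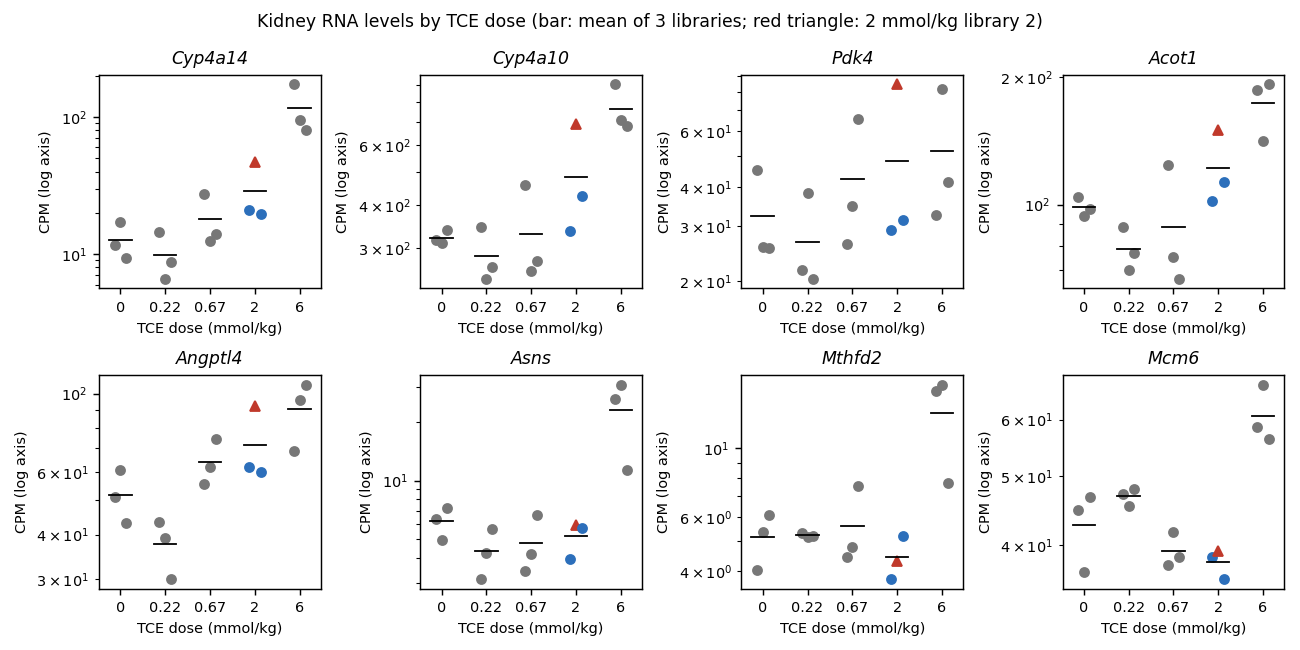
CPM (log axis) of 8 genes in each kidney library by TCE dose, from vehicle (0) to 6 mmol/kg, with a bar for the mean of 3 libraries and the 2 mmol/kg libraries in colour (library 2 as a red triangle). Cyp4a14 lies between 19.5 and 46.7 CPM at 2 mmol/kg and between 80.4 and 173 CPM at 6 mmol/kg, while Asns at 2 mmol/kg (3.97 to 5.93 CPM) lies below 6 mmol/kg (11.3 to 31 CPM).

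The next dose gives a scale for these values. Between 2 and 6 mmol/kg (800 mg/kg), a contrast that takes no vehicle library, 2 of 14216 genes (0.0141%) passed, both lower at 2 mmol/kg. DESeq2 called 25, with 13 higher at 2 mmol/kg. At an unadjusted p under 0.05 there were 826 genes (5.81%), with 540 higher (3.8%) and 286 lower (2.01%) at 2 mmol/kg. The called genes were Asns, which makes asparagine and is switched on by the factor ATF4 when amino acids run short, and Mcm6, a subunit of the helicase that opens DNA for replication.

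The 300-base promoter windows of both called genes are shown because each holds the short motif by which its class of genes is usually recognised. The windows are from RefSeq on GRCm38.p6, run from 250 bases before to 50 bases after the annotated start, and are read 5′ to 3′ on the gene's strand. Capitals in Asns mark a match to TGATGNAAN, the C/EBP-ATF response element that ATF4 binds, which begins 23 bases before the start. Capitals in Mcm6 mark matches to TTTCGCGC and TTTGGCGC, forms of the site bound by the E2F cell cycle factors. Both strands were searched, and the first run of capitals is a pair of overlapping matches on opposite strands, beginning 110 bases before the start. The window of Asns is chr6:7693160-7693459 and that of Mcm6 is chr1:128359656-128359955, both on the minus strand.
Asns: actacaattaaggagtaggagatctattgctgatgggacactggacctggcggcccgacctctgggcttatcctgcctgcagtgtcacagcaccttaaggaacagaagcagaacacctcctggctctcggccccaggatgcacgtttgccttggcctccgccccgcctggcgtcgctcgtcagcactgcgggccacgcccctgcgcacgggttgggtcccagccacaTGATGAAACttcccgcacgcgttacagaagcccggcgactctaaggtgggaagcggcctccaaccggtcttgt
Mcm6: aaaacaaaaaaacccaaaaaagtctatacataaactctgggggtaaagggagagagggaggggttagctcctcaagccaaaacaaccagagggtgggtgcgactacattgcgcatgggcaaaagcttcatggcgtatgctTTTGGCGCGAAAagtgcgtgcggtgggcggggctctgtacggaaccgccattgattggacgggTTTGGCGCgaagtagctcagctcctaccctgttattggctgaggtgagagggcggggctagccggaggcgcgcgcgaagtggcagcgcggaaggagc

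Of 32851 such windows in the mouse, 3.95% hold TGATGNAAN and 0.813% hold either E2F form. Among the other genes looked at, Mcm3 held 1 E2F match, and the windows of Mcm2, and of Mthfd2 and Phgdh for the ATF element, held none. The windows of Acot1 and Pdk4 were searched for the DR1 peroxisome proliferator response element, with up to 3 mismatches, and held none. Of all windows 24.6% hold that element. A match is a description of letters, and binding was not measured.

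Asns had 3.97, 5.93 and 5.72 CPM at 2 mmol/kg, against 26.2, 31 and 11.3 CPM at 6 mmol/kg, and 6.36, 4.96 and 7.23 CPM in vehicle. Every 6 mmol/kg library lay above every 2 mmol/kg library, and the 2 mmol/kg libraries overlapped vehicle. The log2 fold change, 2 over 6 mmol/kg, was -2.14 ± 0.34 (95% interval -2.84 to -1.43, edgeR adjusted p = 0.0181), while that of 2 mmol/kg over vehicle was -0.25 ± 0.34. Mthfd2, a mitochondrial folate enzyme regulated with Asns, had 3.78, 4.33 and 5.19 CPM at 2 mmol/kg, against 15.3, 16.1 and 7.75 CPM at 6 mmol/kg, and narrowly missed the threshold (-1.57 ± 0.28, edgeR adjusted p = 0.0535). Phgdh, the entry enzyme of serine synthesis, had 18.9, 35.8 and 22.9 CPM at 2 mmol/kg, against 56.6, 60 and 29.8 CPM at 6 mmol/kg (-0.92 ± 0.32). In all of these genes library 3 was the lowest at 6 mmol/kg.

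Mcm6 had 38.5, 39.3 and 35.9 CPM at 2 mmol/kg, against 58.6, 67.2 and 56.4 CPM at 6 mmol/kg, and 44.9, 36.7 and 46.7 CPM in vehicle. Its log2 fold change, 2 over 6 mmol/kg, was -0.68 ± 0.10 (95% interval -0.89 to -0.47, edgeR adjusted p = 0.0117). Mcm3, another subunit of the same helicase, had 3.9, 5.83 and 6.04 CPM at 2 mmol/kg, against 10.5, 16.1 and 8.42 CPM at 6 mmol/kg (-1.15 ± 0.25). Of 28 proliferation genes tested, 26 had lower values at 2 than at 6 mmol/kg, with a median of -0.53, and 12 of them had an unadjusted p under 0.05, where 2.01% of all genes were lower at that level. Those 12 were mainly genes of the start of DNA replication (Mcm2 to Mcm7, Pcna, Cdt1, Rrm1, Ccne1), with Ccnd1 and Stmn1. Against vehicle the same list had a median of -0.02 at 2 mmol/kg, and 0.11 without library 2, with no gene at an unadjusted p under 0.05. The calls of both Asns and Mcm6 were lost without library 2 at 2 mmol/kg (adjusted p of 0.134 for Asns and 0.0571 for Mcm6), without library 2 at 6 mmol/kg (0.222 each) and when the pair of groups was fitted alone (0.641 and 0.235). The call of Asns was also lost without library 1 (0.0946) or 3 (0.0555) at 2 mmol/kg and without library 1 at 6 mmol/kg (0.142). Over the libraries left out in turn, the log2 fold change of Asns ran between -2.46 and -1.85 and that of Mcm6 between -0.73 and -0.60. Of the genes higher at 2 mmol/kg, those nearest to a call were Col4a3, a basement membrane collagen of the glomerulus (0.56 ± 0.12), Sav1, a scaffold of the Hippo pathway (0.39 ± 0.08), and Fbf1, a protein of the base of cilia (0.35 ± 0.08), each with an edgeR adjusted p of 0.19.

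PPARa targets also lay lower at 2 than at 6 mmol/kg, with 44 of 52 genes lower and a median of -0.13, but none passed the test. Fat markers lay lower as well, with medians of -1.31 for adipocytes (13 of 14 genes lower) and -0.56 for brown fat. The adipocyte list summed to 196, 270 and 119 CPM at 2 mmol/kg, against 444, 730 and 122 CPM at 6 mmol/kg, and the part of fat RNA in these differences was not tested. Cyp4a14 had 173, 94.5 and 80.4 CPM at 6 mmol/kg, so that no 2 mmol/kg library reached it, and its log2 fold change, 2 over 6 mmol/kg, was -2.0 ± 0.70 (edgeR adjusted p = 0.626). Acot1 had 186, 141 and 192 CPM at 6 mmol/kg (-0.50 ± 0.24), a range that the 150 CPM of library 2 at 2 mmol/kg entered. Pdk4 (-0.10 ± 0.61) overlapped between these doses.

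Clock genes included no passing gene between 2 and 6 mmol/kg. Dbp, an output factor of the clock, had 6.48, 8.2 and 9.01 CPM at 2 mmol/kg, against 62.8, 61.1 and 44.8 CPM at 6 mmol/kg, and 6.58, 5.56 and 12.8 CPM in vehicle. Arntl, which encodes the clock activator BMAL1, ran the other way, with 6.52, 5.93 and 3.86 CPM at 2 mmol/kg, against 1.45, 1.78 and 2.75 CPM at 6 mmol/kg, and 5.96, 5.08 and 4.47 CPM in vehicle. The log2 fold changes, 2 over 6 mmol/kg, were -2.83 ± 0.64 for Dbp and 1.46 ± 0.35 for Arntl, and neither passed in edgeR (adjusted p = 0.192 for Dbp and 0.226 for Arntl), while DESeq2 called both. Of 18 clock genes tested, 4 were higher and 5 lower at an unadjusted p under 0.05, where 3.8% of all genes were higher and 2.01% lower. Since these genes cycle through the day, the hour of tissue collection bears on them. That hour is not given in the labels, and its part in these values was not tested. Between 2 mmol/kg and vehicle the median of the clock list was -0.10. Only Bhlhe40, a repressor within the clock, and Hlf had an unadjusted p under 0.05 there, and Bhlhe40 had 81.9, 83.6 and 86.8 CPM at 2 mmol/kg, against 109, 118 and 141 CPM in vehicle.

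The genes nearest to a call against vehicle were named by rule as the 5 with the smallest unadjusted p in each direction and a mean of at least 1 CPM. None passed. Sptlc3 (chr2:139493913-139637061), a subunit of the enzyme that starts sphingolipid synthesis, had 1.54, 1.54 and 1.64 CPM at 2 mmol/kg, against 0.658, 0.564 and 0.908 CPM in vehicle (log2 fold change 1.13 ± 0.22, edgeR adjusted p = 0.369). The groups did not overlap, and the 3 TCE libraries agreed closely. The PCE vehicle libraries, which had the same treatment as the TCE vehicle libraries, held 1.38 and 1.37 CPM. Against them the log2 fold change of Sptlc3 was 0.19, and 2 mmol/kg values lay only just above theirs.

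Cers3 (chr7:66733118-66823692), a ceramide synthase for very long chains best known from skin and testis, had 0.0375, 1.05 and 8.21 CPM at 2 mmol/kg, against 0.219, 0.0403 and 0.0726 CPM in vehicle. Its high values were in libraries 2 and 3, and it was below all 3 vehicle values in library 1, where its level lay at about that of a single count. The log2 fold change was 4.77 ± 1.03 (edgeR adjusted p = 0.892), and the gene passed once library 1 was left out (5.36, adjusted p = 0.0023). The PCE vehicle libraries had 0.115 and 0.0637 CPM, and the 6 mmol/kg libraries had 0.161, 0.296 and 0.127 CPM, all below libraries 2 and 3 at 2 mmol/kg.

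The other 3 genes with higher values differed by little. Man2b2, a lysosomal mannosidase, averaged 68.1 ± 6.35 CPM at 2 mmol/kg and 55.0 ± 1.68 CPM in vehicle (SD, n = 3 each). Maml3, a coactivator of Notch, averaged 5.62 ± 0.869 CPM at 2 mmol/kg and 3.69 ± 0.577 CPM in vehicle. Irak4, a kinase of Toll-like receptor signalling, averaged 10.6 ± 1.01 CPM at 2 mmol/kg and 8.25 ± 0.444 CPM in vehicle. Against the PCE vehicle libraries the log2 fold changes were -0.08 for Man2b2, 0.18 for Maml3 and 0.23 for Irak4.

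On the lower side, Acy1 (chr9:106432981-106438236) belongs to the glutathione route, since it encodes an aminoacylase that removes the acetyl group from mercapturates. It had 12.1, 14 and 13.3 CPM at 2 mmol/kg, against 19.6, 15.6 and 20 CPM in vehicle, without overlap. The log2 fold change was -0.49 ± 0.14 (95% interval -0.77 to -0.21, edgeR adjusted p of 1) and -0.53 ± 0.15 without library 2. The PCE vehicle libraries had 13.7 and 16 CPM, a log2 fold change of -0.18 for 2 mmol/kg over PCE vehicle. Acy3, another aminoacylase of the same route, had a log2 fold change of -0.13 ± 0.15 against TCE vehicle, with overlapping groups. Pole2, a subunit of a DNA polymerase, averaged 2.48 ± 0.422 CPM at 2 mmol/kg and 3.55 ± 0.252 CPM in vehicle, and Angptl1, a secreted relative of the angiopoietins, had 1.61, 1.12 and 1.24 CPM at 2 mmol/kg, against 2.15, 2.3 and 2 CPM in vehicle. Angptl1 kept its size against the PCE vehicle libraries (-0.66, against -0.70 with TCE vehicle). Zfp85os (-0.73 ± 0.19) and Map2k3os (-0.66 ± 0.19) are antisense genes whose reads cannot be told from those of their partners without a known strand setting, and their fold changes against PCE vehicle were 0.02 and 0.03.

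The remaining lists were described by their counts, since no member passed. In the glutathione and mercapturate list, 34 genes had a median of -0.01, with 17 higher and 17 lower. Besides Acy1, Gss, which completes glutathione synthesis, had 48.9, 48.2 and 42.8 CPM at 2 mmol/kg, against 60.3, 54.6 and 56.2 CPM in vehicle (log2 fold change -0.29 ± 0.09, edgeR adjusted p of 1). Gsto1, an omega class glutathione transferase, had 35.8, 37.6 and 38.5 CPM at 2 mmol/kg, against 27.5, 33.3 and 26.9 CPM in vehicle (0.35 ± 0.11). Both pairs of groups were separate. Ggt1, which begins the cleavage of glutathione conjugates at the tubule surface, had 2610, 2330 and 2810 CPM at 2 mmol/kg, against 3200, 3080 and 2500 CPM in vehicle.

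The oxidizing enzymes had a median of -0.07 over 23 genes, none at an unadjusted p under 0.05. Cyp2e1 had 4250, 2380 and 3780 CPM at 2 mmol/kg, against 3630, 3850 and 2770 CPM in vehicle. The groups overlapped, with a log2 fold change of 0.02 ± 0.16. The 26 NRF2 targets, genes of the defence against oxidants, had a median of -0.03. Hmox1, the heme oxygenase of that list, had 66.8, 50.5 and 67.2 CPM at 2 mmol/kg, against 76.4, 84.2 and 78.3 CPM in vehicle (-0.37 ± 0.15, edgeR adjusted p of 1).

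Injury genes had no passing member. Havcr1, the kidney injury marker KIM-1, had 2.58, 5.97 and 2.04 CPM at 2 mmol/kg, against 6.93, 2.62 and 4.21 CPM in vehicle (-0.36 ± 0.43, or -0.97 ± 0.46 without library 2). Krt18, a keratin of injured tubules and of urothelium, had 13.7, 50.9 and 13.5 CPM at 2 mmol/kg, against 18.2, 16.2 and 12.3 CPM in vehicle. In library 2, 7 of the 32 injury and repair genes were more than 2-fold above the other 5 libraries in CPM with nothing added. The share over all genes on that measure was not taken. The median of the 28 injury and repair genes tested was 0.09 with library 2 and -0.17 without it. Cdkn1a, the cell cycle inhibitor p21 and the lead target of p53, had 1.46, 1.88 and 0.843 CPM at 2 mmol/kg, against 1.05, 1.25 and 0.763 CPM in vehicle (0.47 ± 0.34, or 0.19 ± 0.38 without library 2), and the 21 p53 targets had a median of 0.03. Interferon genes also shifted with library 2. Their median of 0.13 became -0.16 without it, and Ifit2, an interferon-induced gene, had 4.76, 22.3 and 3.73 CPM at 2 mmol/kg, against 5.74, 3.14 and 6.32 CPM in vehicle.

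Among function lists, the lowest medians were those of the heat shock list (-0.24, with 15 of 18 genes lower) and the list of endoplasmic reticulum (ER) stress and the amino acid response (-0.23, with 25 of 34 genes lower). Without vehicle library 2 the heat shock median was -0.01 and the ER median -0.14, and without 2 mmol/kg library 2 the ER median was -0.15. Neither list had a passing gene. At an unadjusted p under 0.05 the ER list had 4 higher genes (Psat1, Phgdh, Slc3a2 and Nupr1) and 1 lower gene (Pdia4). Over all genes 2.91% were higher and 1.36% lower at that level. The log2 fold change of Nupr1 was 1.11 ± 0.53, or -0.46 ± 0.35 without 2 mmol/kg library 2. Hspa8, the constitutive HSP70 chaperone, had 5940, 3570 and 5110 CPM at 2 mmol/kg, against 5060, 7890 and 5730 CPM in vehicle. Within the ER list, Pdia4, an ER chaperone, had 157, 147 and 156 CPM at 2 mmol/kg, against 179, 209 and 191 CPM in vehicle. The 3 amino acid genes Psat1, Slc3a2 and Phgdh (log2 fold change 0.85 ± 0.32 for Phgdh) lay on the other side. Psat1, the next enzyme of serine synthesis after Phgdh, had 2.06, 1.85 and 2.26 CPM at 2 mmol/kg, against 1.01, 1.17 and 0.981 CPM in vehicle (0.96 ± 0.35). Slc3a2, the heavy chain of amino acid exchangers, had 33.2, 21 and 30.3 CPM at 2 mmol/kg, against 15.9, 21.4 and 20.5 CPM in vehicle (0.55 ± 0.17, edgeR adjusted p of 1). Psat1 did not overlap between groups, while library 2 of Slc3a2 lay inside the vehicle range. The PCE vehicle libraries had 34.8 and 32.1 CPM of Slc3a2 and 1.84 and 1.78 CPM of Psat1, close to the levels after TCE. The other function lists had medians of -0.15 (androgen-regulated genes), -0.07 (sterol synthesis), -0.05 (respiratory chain), -0.02 (fatty acid synthesis), -0.01 (ribosomal proteins), 0.02 (immediate early genes) and 0.08 (glucocorticoid and fasting genes). Without 2 mmol/kg library 2 they were -0.07 for androgen-regulated genes, -0.01 for sterol synthesis, 0.04 for the respiratory chain, 0 for fatty acid synthesis, 0.03 for ribosomal proteins, -0.20 for immediate early genes and 0.14 for glucocorticoid and fasting genes. Among kidney, blood and vessel markers, the medians were -0.08 for the distal convoluted tubule, -0.02 for the collecting duct, 0.01 for the loop of Henle, 0.20 for podocytes, 0.26 for endothelium, -0.07 for renin cells, pericytes and fibroblasts, -0.02 for macrophages, 0.38 for lymphocytes and 0.48 for the 3 neutrophil and red cell genes tested. Leaving out 2 mmol/kg library 2 gave -0.18 for endothelium (2 of 8 genes higher, against 8 of 8 with it), -0.47 for the loop of Henle (0 of 8 higher), 0.35 for podocytes, 0.11 for the distal convoluted tubule, -0.11 for the collecting duct and -0.18 for macrophages. Those of neighbouring tissues were 2.29 for ureter and urothelium, 0.76 for brown fat, -0.63 for adipocytes, 0.20 for adrenal cortex, 0.82 for the 5 adrenal medulla genes tested, 0.11 for pancreas, -0.09 for skeletal muscle and -0.02 for intestine, and without 2 mmol/kg library 2 those of urothelium, brown fat and adrenal medulla were -1.75, -0.40 and 0.25. The adipocyte median was 0.42 without vehicle library 2. The proximal tubule list had a median of -0.04, or 0.05 without 2 mmol/kg library 2.

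**Figure D3:**
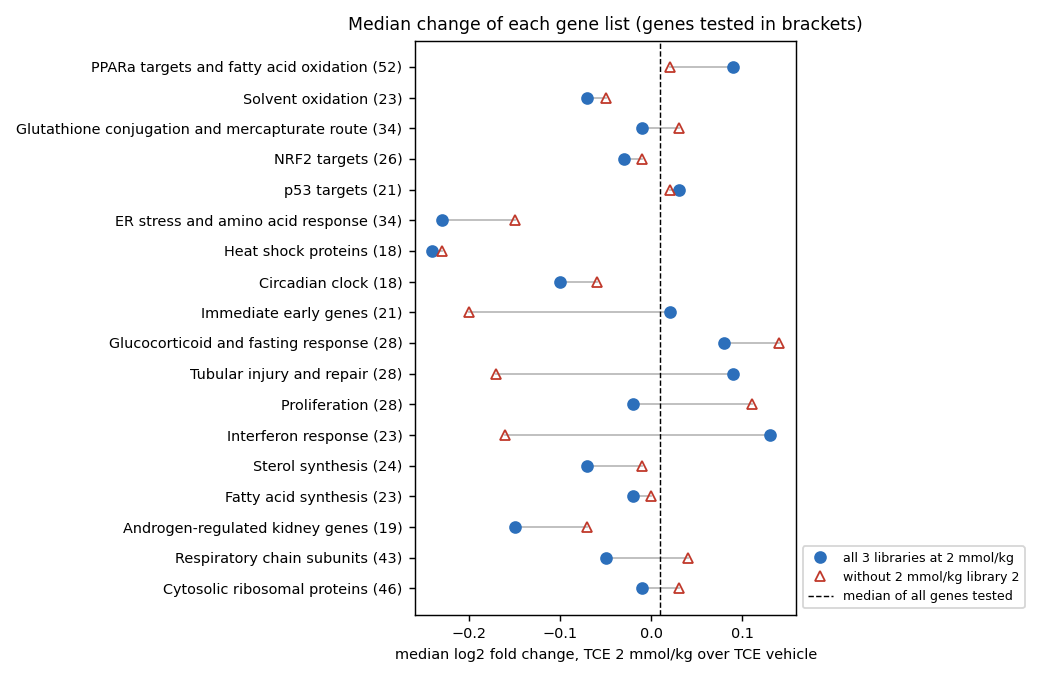
Median log2 fold change, TCE 2 mmol/kg over TCE vehicle, of each function list with all libraries (blue circles) and without 2 mmol/kg library 2 (red triangles), with a dashed line at the median of all genes tested (0.01). The immediate early, injury and interferon lists move from above the line to below it without library 2, and the heat shock list stays at -0.24 and -0.23.

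Some transporters of the proximal tubule, picked with their values in view, had larger fold changes when library 2 was left out, without a passing gene. They do not stand for their list, whose 13 tested genes had a median of 0.05 without library 2, with 10 higher. In that fit the log2 fold change was 0.03 ± 0.13 for Slc22a6, 0.01 ± 0.11 for Lrp2, -0.14 ± 0.12 for Cubn and -0.43 ± 0.15 for Aqp1. Slc5a2, the glucose transporter SGLT2 of the first segment, had 942, 469 and 1090 CPM at 2 mmol/kg, against 486, 699 and 655 CPM in vehicle. Libraries 1 and 3 lay above every vehicle library and library 2 below them all, and the log2 fold change was 0.44 ± 0.20 with library 2 and 0.73 ± 0.15 without it (edgeR adjusted p = 0.328). Slc22a8, the organic anion transporter OAT3, had 20, 11.1 and 21.8 CPM at 2 mmol/kg, against 10.1, 14.5 and 14.7 CPM in vehicle (0.67 ± 0.16 without library 2). Among 11 markers of the straight part, 9 had lower values after TCE, with a median of -0.21, or -0.38 without library 2. Slc22a7, the anion transporter OAT2, had 318, 612 and 403 CPM at 2 mmol/kg, against 724, 498 and 563 CPM in vehicle (-0.42 ± 0.23, or -0.72 ± 0.23 without library 2). Kap, an androgen-regulated protein of the proximal tubule, had 43900, 45600 and 49500 CPM at 2 mmol/kg, against 62400, 59100 and 50200 CPM in vehicle (-0.30 ± 0.10). None of these passed. The PCE vehicle libraries had 1040 and 1090 CPM of Slc5a2, near libraries 1 and 3 at 2 mmol/kg and far above library 2. They had 48700 and 47300 CPM of Kap, within the range of the 2 mmol/kg libraries.

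The vehicle groups of the solvents were therefore compared directly. Of 14216 genes, edgeR called 0 (0%) between TCE vehicle and PCE vehicle, DESeq2 also called 0, the smallest adjusted p was 0.308, and 1158 genes (8.15%) had an unadjusted p under 0.05, with 584 higher (4.11%) and 574 lower (4.04%) in TCE vehicle. These groups had the same treatment, and the PCE vehicle group has 2 libraries. Of the genes above, Slc3a2 had a log2 fold change, TCE vehicle over PCE vehicle, of -0.80 ± 0.19, Slc5a2 of -0.80 ± 0.22 and Mcm3 of -0.85 ± 0.27. The genes nearest to a call were Pdzd7, a scaffold protein of hair cells (1.04 ± 0.20), Khnyn (0.48 ± 0.11) and a transcript listed as NR_026976 (0.59 ± 0.14) on the higher side, and Man2b2 (-0.39 ± 0.08), Lrrc41 (-0.28 ± 0.06) and Samd4b (-0.32 ± 0.07) on the lower side. Proliferation genes had a median of -0.59 in that comparison, with 11 of 28 lower at an unadjusted p under 0.05. Several marker lists had higher values in TCE vehicle, with medians of 3.15 for liver (12 of 12 genes higher, 9 at an unadjusted p under 0.05), 2.36 for ureter and urothelium, 1.13 for adipocytes and 0.61 for macrophages (11 of 11 higher), and their part in the other differences was not tested. Whether animals, dosing days or library batches set the vehicle groups apart is not given in the labels, and the cause was not tested.

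At the same molar dose, PCE carries a chlorine where TCE carries a hydrogen. Both were given at 2 mmol/kg (240 mg/kg TCE and 300 mg/kg PCE), and the responses were compared as the fold change of TCE over its vehicle minus that of PCE over its vehicle. This pair of solvents was the only pair compared, with p-values adjusted over all genes. Of 14216 genes 0 (0%) passed in edgeR, with a smallest adjusted p of 0.112, 598 (4.21%) had an unadjusted p under 0.05, and DESeq2 called Asns and Fbf1. This comparison shares its TCE libraries with those above, and its vehicle groups are the pair just compared. The intervals of 9143 genes (64.3%) lay within a 2-fold difference in either direction.

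PPARa targets had no passing gene in the difference of responses. Markers of other tissues differed in the same comparison, with medians of -1.83 for liver (12 of 12 genes lower), 1.10 for brown fat and 1.76 for ureter and urothelium, and their part in the result was not tested. Cyp4a14 had 20.9, 46.7 and 19.5 CPM after TCE, against 64, 166 and 123 CPM after PCE, while the vehicle libraries had 9.37 to 17.1 CPM with TCE and 9.14 and 11.9 CPM with PCE. The difference of log2 fold changes was -2.28 ± 1.09 (95% interval -4.55 to -0.01, edgeR adjusted p of 1). That of Acot1 was -1.04 (95% interval -1.79 to -0.29) and that of Angptl4 was -1.68 (95% interval -2.69 to -0.67, edgeR adjusted p = 0.934). Of 52 PPARa genes, 43 had a lower response to TCE, with a median of -0.24, and 12 of them had an unadjusted p under 0.05, where 1.98% of all genes were lower and 2.22% higher at that level.

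Asns had the largest difference among the genes nearest to a call. It had 3.97, 5.93 and 5.72 CPM after TCE, against 12.5, 25.3 and 19.4 CPM after PCE, and the groups did not overlap. The difference of responses was -2.64 ± 0.52 (95% interval -3.73 to -1.55, edgeR adjusted p = 0.346). Fbf1 lay the other way at 0.65 ± 0.11 (edgeR adjusted p = 0.112), with 57.4, 61.9 and 62.6 CPM after TCE, against 49.2, 41.6 and 42.3 CPM after PCE. The other genes nearest to a call were Rmnd5b (0.54 ± 0.13) and Tldc2 (0.86 ± 0.22) on the higher side, and Pdzd7 (-1.12 ± 0.26) and Insig1, a brake on sterol synthesis (-1.10 ± 0.25), on the lower side. For Pdk4 the interval ran from -2.51 to 1.39, too wide to place the solvents in order or to call them alike.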

How the data were processed

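RNA was sequenced from kidney, and liver was not used here. The deposited table gives whole-number read counts by RefSeq transcript and library, per the file headers, and the values carry no normalization. In 12 of the kidney columns the dose line above the counts holds a decimal; these deposited columns were handled like estimated counts, and all their values were whole. TopHat2 2.0.10, HTSeq, CASAVA 1.8.2 and the build mm10 appear in the submitters' processing notes, without roles. Ambiguous reads (19.68 to 21.0% of the 6 libraries) and reads matching no feature (21.67 to 25.84%) were left out of totals and tests, so genes with overlapping neighbours or close relatives are uncertain in level. Since counts were by transcript, reads shared by transcripts of the same gene may also have been set aside as ambiguous. The levels of the 5039 genes with 2 or more transcripts may therefore be too low. Of 33392 transcripts, 32988 were matched by accession to RefSeq genes of GRCm38.p6, 278 were named by the deposited symbol and 126 stayed unnamed, giving 24122 genes.

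The counts of all 29 kidney libraries in 10 groups were fitted together in edgeR 4.0.16 (R 4.3.3) with TMM, filterByExpr, 1 mean per group and a robust quasi-likelihood F test, two-sided, with Benjamini-Hochberg adjustment over 14216 genes. The common biological coefficient of variation was 0.156. SEs were derived from the fold change and its F statistic, and CPM was computed on TMM library sizes. Pairs of the 6 libraries differed by more than sampling noise (15 pairs, with a chi-square of 16.32 or more for each degree of freedom). On this measure, which uses counts, pairs with vehicle library 3 differed most, at 112.31 to 143.83, against at most 60.94 in the other pairs. That library held the high count of NR_046233, whose part in these values was not tested. The correlation of log2 CPM gave another order. It was lowest in the pairs with 2 mmol/kg library 2 (0.9821 to 0.9886), and was 0.9925 to 0.9936 between vehicle library 3 and the libraries other than that one. The fit was tested on simulated counts.

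The groups, the 18 function and 20 marker lists and the naming rule were chosen with earlier results of these data known. The rule names the called genes with the largest change, or, where fewer are called, those with the smallest unadjusted p (5 per direction, 3 in the other comparisons), and 10 genes whatever their result, of which 1 is not reported here. Some further genes were picked with their values in view: Angptl4, Acaa2, Acsl1, Ehhadh, Cpt1a, Acadl, Mcm3, Dbp, Arntl, Phgdh, the marker genes and the list members with per-library values. Motifs were chosen after the calls were known. Alternatives were DESeq2 1.42.0, its size factors, no count filter, the compared groups alone, a replicate block, other vehicle references, deposited symbols and leaving out each library.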

Additional observations from a re-analysis of the deposited data

How the results depend on the processing

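For 2 mmol/kg against vehicle, 0 genes passed with DESeq2, DESeq2's size factors, no count filter, the groups alone, deposited symbols, PCE vehicle as the reference and both vehicles pooled, and 0 to 1 passed with each library left out. The 1 was Cers3, without TCE 2 mmol/kg library 1. After the data were seen, leaving out library 2 of both groups gave 1 (Car2, 0.63, adjusted p = 0.0342), and pooling the vehicles without TCE library 2 gave 1 (Cers3, 5.31, adjusted p = 0.0243). For 2 against 6 mmol/kg the 2 genes became 1 with the groups alone (Dbp), 25 in DESeq2 and 0 to 5 with each library left out. The response difference gave 2 in DESeq2 and 0 to 1 with each library left out. The vehicle comparison stayed at 0 under each alternative run. The cause of these shifts was not tested.

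Deviations of same-numbered libraries from their group means correlated at -0.221, -0.341 and -0.196. With so few libraries per group, these values cannot decide whether replicate numbers pair the libraries, and the labels do not explain the numbers. With the replicate block, 0 genes passed against vehicle, 3 against 6 mmol/kg (Mthfd2 joined), 0 for the response difference and 0 between vehicles.

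Of 340 combinations of a named gene and an alternative, 14 changed sign. Cyp2e1 was -0.15, -0.04 and -0.11 without TCE library 1, TCE library 3 and vehicle library 3, and -0.02 against PCE vehicle. Pdk4 was -0.08 without TCE library 2 and -0.22 without library 2 of both groups. Ucp1 was -1.56 and -1.70 in the same settings and -1.85 with the vehicles pooled and TCE library 2 left out. Havcr1 was 0.06 without vehicle library 1 and 0.51 against PCE vehicle. Against PCE vehicle Man2b2 was -0.08, Zfp85os 0.02 and Map2k3os 0.03. With each library left out in turn, Pdk4 ran between -0.08 and 0.92, Cyp2e1 between -0.15 and 0.24, Havcr1 between -0.97 and 0.06 and Ucp1 between -1.56 and 3.58. Leaving out a library leaves 2 in its group, whose spread the fit shares with all kidney groups. With 2 or 3 libraries per group and a median SE of 0.167, changes under 2-fold were often not resolved.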
